A study of Rattus norvegicus with 10 samples.

Results

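Ultraconserved elements are stretches of the genome that human, mouse and rat share base for base. Many of those that touch exons lie in genes of RNA-binding proteins, above all splicing factors. There the element often covers an alternative exon that brings a premature stop codon into the mRNA, and the protein can bind its own transcript and favour that exon, which lowers its own level. The arrays of this study carried a probe for each strand of such elements, named by the element's number and a + or - sign (uc.33+, uc.33-). The probes described here numbered 46, for both strands of 23 elements. They form a group because the element, by its number in the human catalogue, lies in 1 of 21 genes. These are genes of splicing factors, of other RNA-binding proteins and, for CLK3 and CLK4, of kinases that phosphorylate splicing factors. The rule behind the group uses no measured value. Since nearly every one of these genes holds a single element, the probes are named below by host gene and sign, with the element's number where it helps, and the plots give each element's number. TRA2A holds 2 elements, told apart here as the lower-numbered and the higher-numbered. They were 46 of 959 probes for ultraconserved elements and of 38650 lncRNA and mRNA probes in all.

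Synovial tissue, the lining of the joint, was taken from 10 male Sprague Dawley rats, aged 7 to 8 weeks when selected, with 1 array per rat. In the CIA group (collagen-induced arthritis), 5 rats had received bovine type II collagen in complete Freund's adjuvant under the skin at the tail base and later a booster in incomplete adjuvant. The control group was 5 blank control rats, and tissue of both groups was taken after 21 days. The model combines collagen with adjuvant, and no group received adjuvant alone. The tissue is a mixture of cells, so that less of an RNA per cell and fewer cells that make it cannot be told apart. The probes' names do not give the genome whose strand the sign refers to, and the host genes were assigned from background knowledge of the human catalogue's numbering, as no file or table used here gives them. The families, strands and promoters given below rest on that assignment. Gene names were known for few other probes, so neither the mRNAs of the host genes nor markers of the synovial cell types were analysed here.

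Values are log2 intensities after subtraction of the array's 75th percentile, so that 0 is the level of that percentile on each array. The scanner software marks a probe as well above background on an array, and this number set the depth of each array. It ranged from 15605 to 26398 of 38650 probes on control arrays and from 12332 to 24300 on CIA arrays, with the lowest numbers on CIA 2 (12332), CIA 3 (14382) and control 3 (15605). Saturation was seen on no spot. The slides had been scanned in 3 scans. CIA 1 and control 1 shared a scan, CIA 2 to CIA 5 came from another scan and control 2 to control 5 from another again. Only CIA 1 and control 1 therefore compare the groups within a scan, and for the other arrays scan and group cannot be told apart.

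The test took in probes that 5 or more of the 10 arrays had detected, that is, shown well above background. Among the members, 22 of 46 probes passed (47.8%). The share was 29.0% for the other 913 probes of ultraconserved elements (265 probes) and 55.7% for all lncRNA and mRNA probes. Both signs were equally represented, with 11 of 23 + probes and 11 of 23 - probes. Of the 24 members that were not tested, 15 were not well above background on any array and 9 were so on 1 to 4 arrays. Of these 9 probes, 8 were detected on more control than CIA arrays, namely the + probes in SRSF3, HNRNPM, HNRNPK and the higher-numbered TRA2A element and the - probes in CLK4, TIAL1, SRSF11 (uc.28-) and HNRNPU (uc.46-). The other 1, the - probe in PRPF39, was seen on a CIA array alone. The 15 probes seen on no array were both strands of uc.45 (HNRNPU) and of the MBNL1 element, the + probes in SRSF11, HNRNPDL, CLK4, HNRNPH1, PRPF39 and RBM39, and the - probes in PTBP2, SRSF3, SYNCRIP, CLK3 and SRSF1.

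The 10 members detected on all 10 arrays were the + probes in TRA2B, SRSF1, PCBP2 and CLK3 and the - probes in RBM39, SRSF6, HNRNPDL, HNRNPM, MATR3 and the lower-numbered TRA2A element. In 12 elements 1 strand passed the filter (6 on the + strand, 6 on the - strand), in 5 elements both did (in TRA2B, MATR3, PCBP2, SRSF6 and the lower-numbered one in TRA2A), and in 6 neither did. HNRNPK is among the 12 only by the limit of 5 arrays, with its + probe on 4 arrays and its - probe on 5. Of the other elements with probes for both strands, 52 had both strands tested (11.4%), 161 had 1 (35.3%) and 243 none (53.3%), beside 21.7%, 52.2% and 26.1% of the 23 elements described here. The contrast between strands was complete in HNRNPDL, CLK3, SRSF1 and RBM39, where 1 probe was detected on 10 arrays and its partner on 0. Neither strand was detected on any array for uc.45 in HNRNPU and for the element in MBNL1. The second element in HNRNPU, uc.46, was detected on 7 arrays with its + probe and on 2 with its - probe, so the elements of this gene differed. In TRA2A, the lower-numbered element was detected with both probes (+ on 9 arrays, - on 10), and the higher-numbered with its - probe on 9 arrays and its + probe on 1.

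The sign with the signal was set against the strand of the host gene. For the 12 elements with 1 tested strand, the sign matched the host's strand on the human genome in 7 and on the rat genome (GRCr8) in 3 of 11 with a known strand. The sign alone therefore does not tell whether the probe read the host's transcript or the opposite strand.

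**Figure D1:**
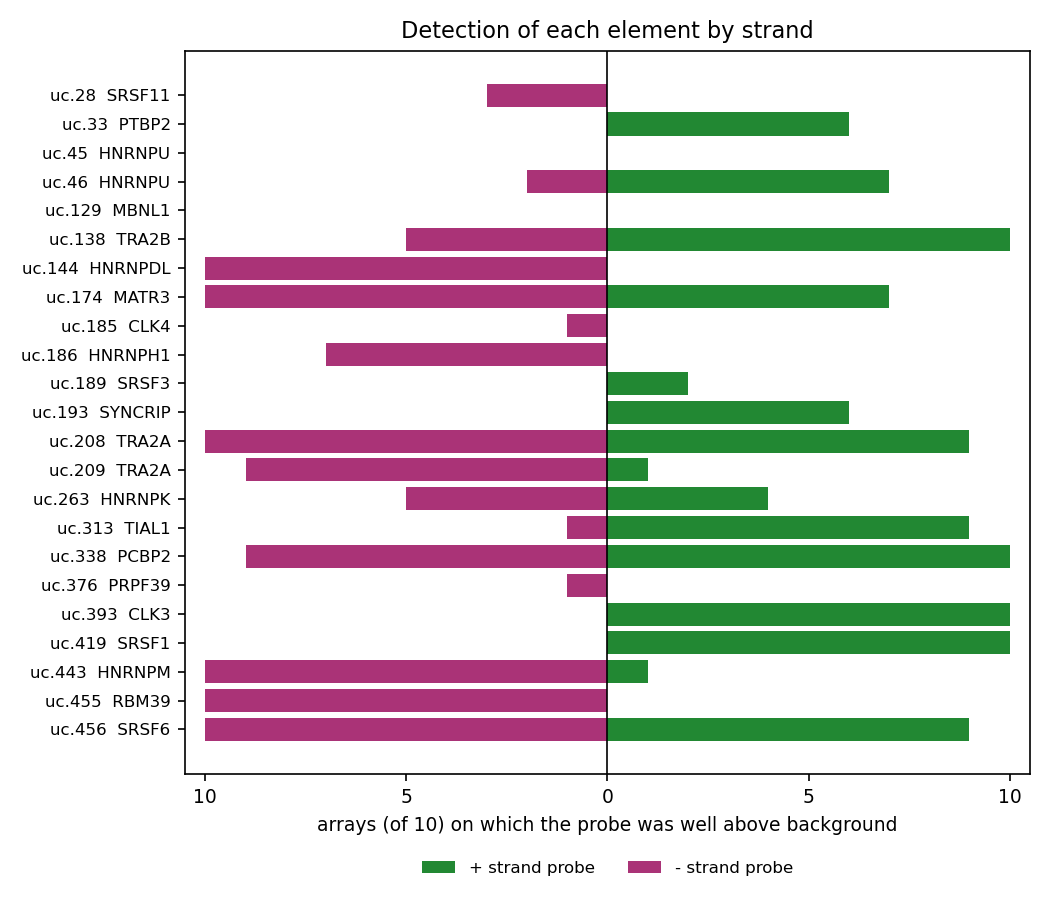
Number of arrays, of 10, on which each element's + probe (right, green) and - probe (left, purple) was well above background, for the 23 elements with their human host genes. Bars reach 10 on 1 side and 0 on the other in HNRNPDL, CLK3, SRSF1 and RBM39, and uc.45 (HNRNPU) and the element in MBNL1 have no bar.

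In CIA rats 19 of the 22 tested members were lower than in control rats and 3 were higher, with differences from -1.70 to 0.37 on the log2 scale. Their median was -0.43. The median of all 21521 tested probes was -0.03 with 52.0% lower, and that of the other tested ultraconserved elements -0.06 with 150 of 265 lower. Among the 10 members detected on all 10 arrays, which did not depend on either group for passing the filter, 8 were lower and the median was -0.34. Of all probes detected on all arrays 46.3% were lower, and their median was 0.05. When fitted on such probes alone, 1 of the 10 members had unadjusted limma p under 0.05, as had 18.1% of all probes. No member passed the limma test after Benjamini-Hochberg adjustment over all tested probes, where the smallest adjusted p of a member was 0.206. The same test called 0% of all probes. Without adjustment 5 members had p under 0.05 (uc.33+ in PTBP2, the - probe in TRA2B, the - probes of both TRA2A elements and the - probe in HNRNPK), all lower in CIA. Of these, the - probes in TRA2B and HNRNPK were seen on 4 control arrays and 1 CIA array. They passed the filter through the control group, where they are high. They are therefore described without a test and lend no support to this count or to that of the 19 lower members. All 5 were 22.7% of the 22, where 14.3% of all tested probes had such a p in either direction and 8.56% were lower with it. Without the - probes in TRA2B and HNRNPK, the other 3 were 15% of the 20 remaining members. No like removal was made among all probes, so no share over all probes stands beside the 15%. Of the 3, uc.33+ was seen on 4 control arrays and 2 CIA arrays, so it too passed the filter mainly through the control group. The group ranges did not overlap for 2 probes, uc.33+ in PTBP2 and the + probe of the lower-numbered TRA2A element, 9.09% of the members, beside 3.55% of all probes in either direction and 2.24% lower in CIA.

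The count of 5, with the - probes in TRA2B and HNRNPK included, fell to 3 without control 2, without control 4 and without CIA 5. The share of all probes fell to 8.35%, 9.53% and 11.1% there. For the - probe of the lower-numbered TRA2A element the unadjusted limma p stayed under 0.05 whichever array was left out. For the - probe of the higher-numbered TRA2A element it did not without control 2, 3, 4 or 5 or CIA 2, 4 or 5. The - probes in TRA2B and HNRNPK, which passed the filter through the control group, are not followed here. The scans moved with this shift. On the shared scan, CIA 1 was lower than control 1 for 11 of 21 members (the HNRNPDL probe has no value on CIA 1), with a median difference of -0.16, beside 0.04 and 46.8% lower for all probes. On the separate scans, CIA 2 to CIA 5 were on average lower than control 2 to control 5 for 19 of 22 members with a median of -0.60, beside -0.04 for all probes. With the scan as a block the estimate is the difference within the shared scan, with its spread taken from the other arrays. In that fit 0.474% of all probes had an unadjusted limma p under 0.05. The only such member was the - probe in TRA2B, which passed the filter through the control group and lends no support. The brightness of the arrays moved with the groups as well. Between 16 and 27 members were well above background on each control array and between 10 and 24 on each CIA array. The part of scan and brightness in the lower values was not tested.

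**Figure D2:**
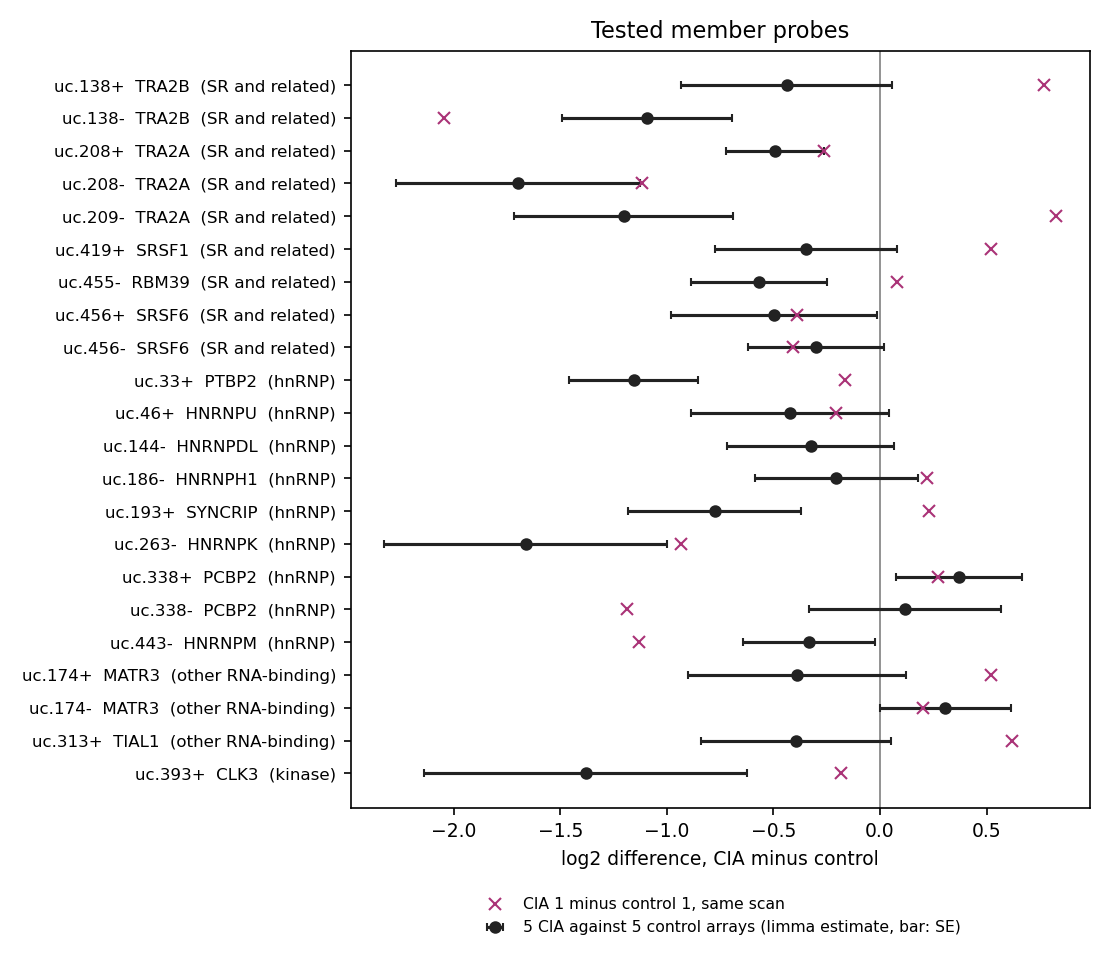
Log2 difference, CIA minus control, of the 22 tested members, grouped by the family of the host protein. Points and bars are limma estimates with their SE over 5 CIA and 5 control arrays (4 CIA arrays for HNRNPDL), and crosses are CIA 1 minus control 1 on the shared scan. Of the points 19 lie below 0, and of the 21 crosses 11 do.

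SR proteins bind exonic enhancers through RNA recognition motifs and recruit the splicing machinery through domains rich in arginine and serine. Their 8 elements, relatives included, made up 16 probes, of which 9 were tested. All 9 were lower in CIA, with a median of -0.50, where 52.0% of all tested probes were lower. Among the 9 is the - probe in TRA2B, which passed the filter through the control group and lends them no support. Unadjusted limma p was under 0.05 for 3, counting this - probe in TRA2B. Of all tested probes 14.3% had such a p in either direction and 8.56% were lower with it. These 3 lay in TRA2A and TRA2B, the transformer-2 proteins, which bind purine-rich enhancers and favour inclusion of exons.

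The - probe of the lower-numbered TRA2A element read -0.59, 1.19, 2.73, 1.63 and 1.38 on control 1 to control 5. On CIA 1 to CIA 5 it read -1.71, 0.08, 0.49, -0.53 and -0.49. Control 1, from the shared scan, lay within the CIA range, and the other 4 control arrays lay above every CIA array. The mean was 1.27 ± 1.20 (SD, n = 5) in control and -0.43 ± 0.83 (SD, n = 5) in CIA rats. The difference was -1.70 with an SE of 0.57, a level 0.308 times that of the controls (limma adjusted p = 0.239, two-sided exact permutation p = 0.0397). Within the shared scan it was -1.12, in the same direction, and after normexp background correction, which adds an offset to every probe, -1.02.

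The opposite strand of the same element was detected on 9 arrays, all but CIA 2. The + probe read -1.30, -0.84, -1.21, -1.21 and -0.91 on control 1 to control 5, and -1.57, -2.01, -1.51, -1.50 and -1.34 on CIA 1 to CIA 5. Every CIA array was below every control array, by a narrow margin between CIA 5 and control 1. The difference was -0.49 with an SE of 0.23 (limma adjusted p = 0.356), and the exact permutation p was 0.0079, the smallest that 5 arrays against 5 can give. On the shared scan it was -0.26, and after normexp -0.0073.

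The higher-numbered element in TRA2A gave its signal on the - strand. Its probe read -0.56, 1.08, 1.66, 0.98 and 1.68 on control 1 to control 5 and 0.27, -1.53, 0.84, -0.16 and -0.59 on CIA 1 to CIA 5. Control 1 was again the lowest of its group, and on CIA 2 the probe was not well above background. The difference was -1.20 with an SE of 0.51 (limma adjusted p = 0.315, exact permutation p = 0.0714). On the shared scan CIA 1 was the higher array, by 0.83, which turns the direction. After normexp the difference was -0.49.

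TRA2B is the paralogue of TRA2A. The - probe of its element read -1.25, -1.58, -2.0, -1.72 and -3.41 on control 1 to control 5 and -3.29, -3.07, -2.47, -3.02 and -3.59 on CIA 1 to CIA 5. It was well above background on 4 control arrays but on 1 CIA array, CIA 4, so it passed the filter through the control group and its difference is given as a description. The difference was -1.09, and -2.05 on the shared scan and -0.21 after normexp. The + probe of TRA2B, detected on every array, differed by -0.44 with an SE of 0.50 (limma adjusted p = 0.739).

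No other SR element had unadjusted limma p under 0.05. SRSF1 is the founding SR protein, which acts in constitutive and alternative splicing, and the + probe of its element was among the 5 members with the highest mean. It read 1.35, 2.17, 1.68, 2.23 and 3.10 on control 1 to control 5 and 1.87, 0.66, 1.42, 2.13 and 2.71 on CIA 1 to CIA 5, and the groups overlapped widely. Its difference was -0.35 with an SE of 0.43 (limma adjusted p = 0.762), against 0.52 on the shared scan. For SRSF6, an SR protein that regulates alternative exons, both strands were tested, and the differences were -0.50 with an SE of 0.48 for the + probe and -0.30 with an SE of 0.32 for the - probe. For RBM39, a coactivator of transcription with SR features, the - probe differed by -0.57 with an SE of 0.32 (limma adjusted p = 0.443). SRSF3, which regulates its own splicing, and SRSF11, a relative of the SR proteins, had no tested probe. The + probe of SRSF3 was detected on 2 arrays, both control, and uc.28- of SRSF11 on 3, of which 2 were control. The uc.28+ probe was detected on no array.

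The hnRNPs bind nascent transcripts and often oppose SR proteins at the choice of exons. Their 9 elements made up 18 probes, of which 9 were tested. In CIA rats 7 of these were lower and 2 higher, with a median of -0.33, where 52.0% of all tested probes were lower. Unadjusted limma p was under 0.05 for 2, counting the - probe in HNRNPK. Of all tested probes 14.3% had such a p in either direction.

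PTBP2 is the paralogue of the polypyrimidine tract-binding protein PTBP1 and is known best from neurons. Its element gave a signal on the + strand alone, with uc.33- detected on no array. The uc.33+ probe read -2.42, -1.87, -1.91, -1.82 and -1.93 on control 1 to control 5 and -2.58, -2.89, -3.98, -2.80 and -3.48 on CIA 1 to CIA 5. Every CIA array lay below every control array, and the control arrays other than control 1 lay close together. The means were -1.99 ± 0.24 (SD, n = 5) in control and -3.14 ± 0.57 (SD, n = 5) in CIA rats, a difference of -1.16 with an SE of 0.30 (limma adjusted p = 0.206, exact permutation p = 0.0079). The probe was dim. It was well above background on 4 control arrays and on 2 CIA arrays, CIA 1 and CIA 4, so most of its values in CIA rats are at or near background. It passed the filter mainly through the control group, where it is high. On the shared scan the difference was -0.16, and after normexp it was -0.10, with unadjusted limma p no longer under 0.05.

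HNRNPK binds C-rich stretches of RNA and DNA. The - probe of its element read -2.09, -1.72, -2.46, -1.87 and -3.38 on control 1 to control 5 and -3.02, -1.90, -3.97, -5.80 and -5.14 on CIA 1 to CIA 5. It was well above background on 4 control arrays and 1 CIA array and so, like the - probe in TRA2B, passed through the control group. CIA 1, where it was detected, and CIA 2, where it was not, lay inside the control range. The difference, given as a description, was -1.66. It was -0.93 on the shared scan, -0.44 with the authors' log2 values and -0.10 after normexp. The lowest value that the software marked as well above background lay at -1.07 on CIA 2 and at -3.83 on control 5, so an undetected probe on a dim array can have a higher value after scaling than a detected probe on a bright one, as CIA 2 (-1.90) and control 5 (-3.38) show here.

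HNRNPDL, which limits its own level by splicing in its last exons, gave a signal on the - strand alone. This - probe, also among the 5 with the highest means, read 4.42, 5.24, 6.37, 5.60 and 5.49 on control 1 to control 5 and 5.02, 5.69, 4.70 and 4.99 on CIA 2 to CIA 5. Its spot on CIA 1 was marked as an outlier and dropped, so the fit holds 4 CIA arrays and no value within the shared scan. The difference was -0.32 with an SE of 0.39 (limma adjusted p = 0.759).

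PCBP2, a poly(C)-binding protein related to HNRNPK, had both strands tested and neither lower. The differences were 0.37 with an SE of 0.30 for the + probe (limma adjusted p = 0.604) and 0.12 with an SE of 0.45 for the - probe. The differences of the other tested probes of this family were all below 0 and none had unadjusted limma p under 0.05. They were -0.78 with an SE of 0.41 for the + probe in SYNCRIP, -0.42 with an SE of 0.47 for uc.46+ in HNRNPU, -0.33 with an SE of 0.31 for the - probe in HNRNPM and -0.20 with an SE of 0.38 for the - probe in HNRNPH1. SYNCRIP is a cytoplasmic hnRNP bound to mRNAs, HNRNPU a scaffold protein of the nucleus, HNRNPM a regulator of alternative exons, and HNRNPH1 a protein that binds runs of G.

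The other RNA-binding proteins were MATR3, TIAL1, MBNL1 and PRPF39. Of their 8 probes, 3 were tested, 2 lower and 1 higher, and none had unadjusted p under 0.05. MATR3 is matrin 3, a protein of the nuclear matrix that represses exons. Its - probe read 0.44, 0.53, 0.72, -0.36 and 1.03 on control 1 to control 5 and 0.64, 0.27, 0.77, 0.95 and 1.27 on CIA 1 to CIA 5. The groups overlapped, and the difference was 0.31 with an SE of 0.31 (limma adjusted p = 0.695) and 0.20 on the shared scan. The + probe of the element differed by -0.39 with an SE of 0.51. TIAL1, a protein of stress granules that binds U-rich RNA, differed by -0.40 with an SE of 0.44 on the + strand. MBNL1, a muscleblind protein that switches exons from fetal to adult forms, and PRPF39, a factor of the U1 snRNP, had no tested probe.

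CLK3 and CLK4 are kinases that phosphorylate SR proteins and so release them from nuclear speckles. For CLK4 no probe was tested, and its - probe was detected on control 4 alone. In CLK3 the + probe was among the 5 members with the highest means, and its difference had the largest SE of the tested members. It read 4.87, 5.25, 2.93, 4.51 and 4.64 on control 1 to control 5 and 4.68, 0.14, 2.97, 4.17 and 3.33 on CIA 1 to CIA 5. The lowest array of each group (control 3 and CIA 2) was also the one of its group with the fewest detected probes. The difference was -1.38 with an SE of 0.76 (limma adjusted p = 0.435, exact permutation p = 0.143), -0.65 without CIA 2 and -0.76 without the 3 dimmest arrays. On the shared scan it was -0.18.

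**Figure D3:**
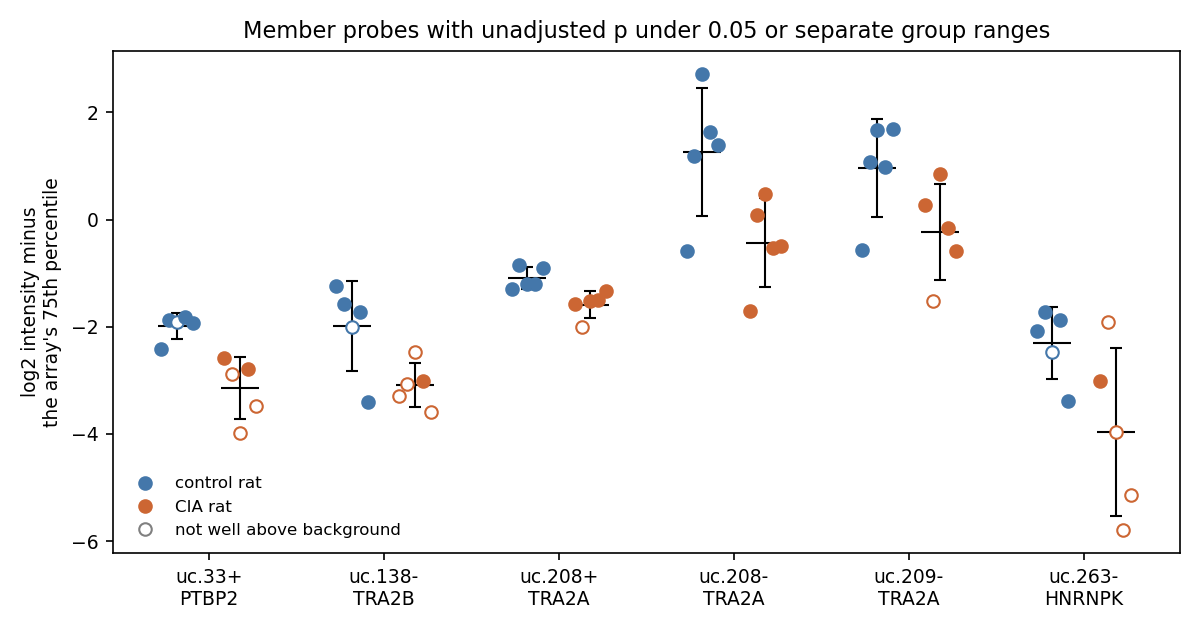
Value of each array (circles, control blue, CIA orange) for the 6 members with unadjusted limma p under 0.05 or separate group ranges, as log2 intensity minus the array's 75th percentile. Open circles were not well above background, and black bars give the mean and SD of 5 arrays. The groups are separate for uc.33+ (PTBP2) and for the + probe of the lower-numbered TRA2A element, and for the - probes of both TRA2A elements 1 control array, control 1, lies among the CIA arrays.

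In the difference between the strands of an element, + minus - on the same array, a scaling common to all probes of the array cancels. For a strand at or near background the difference can still depend on the array's brightness, which was not tested. The strand difference could be fitted for 57 ultraconserved elements with both strands tested, 5 of them members. Of the 57 elements, 8.77% had an unadjusted limma p under 0.05, and none of the members was among them. The closest was the lower-numbered TRA2A element, where + minus - was -0.71, -2.03, -3.93, -2.84 and -2.29 on control 1 to control 5 and 0.14, -2.09, -2.0, -0.97 and -0.85 on CIA 1 to CIA 5. The strands were closer together in CIA rats by 1.21 with an SE of 0.61 (limma adjusted p = 0.414 over the 57 elements, exact permutation p = 0.119). For TRA2B, MATR3, PCBP2 and SRSF6 the change was 0.65, -0.69, 0.25 and -0.20, with SEs from 0.43 to 0.71.

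Detection of the members followed the brightness of the array. The members were detected at 58.7% on control 1, where 68.3% of all probes were, and at 21.7% on CIA 2, where 31.9% were. On all 10 arrays the share was lower for the members than for all probes. When arrays were weighted by their quality in the fit, 9 members had an adjusted p under 0.05, 7 lower and 2 higher (the - probe in MATR3 and the + probe in PCBP2). The same fit called 33.2% of all tested probes, and the 3 arrays with the largest weights (control 4, CIA 4 and CIA 5) carried 72.6% of the weight and came from the separate scans.

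**Figure D4:**
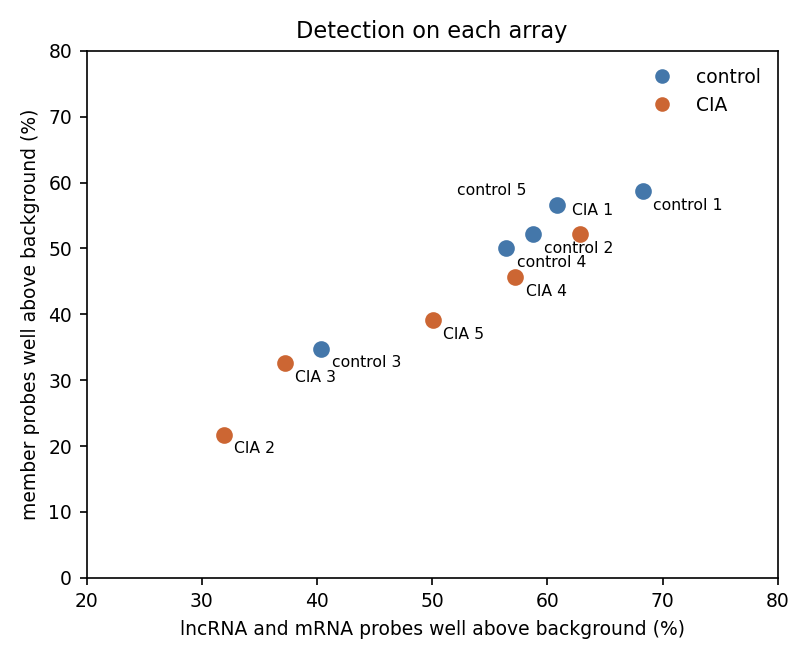
Share of the 46 members (vertical axis, %) against the share of all 38650 lncRNA and mRNA probes (horizontal axis, %) that were well above background, 1 point per array (control blue, CIA orange). The members' share runs from 21.7% on CIA 2 to 58.7% on control 1.

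The probes' own sequences were not used here. The 250 bases before the start of the rat host gene are given for Ptbp2 (uc.33+) and Tra2b, from RefSeq on GRCr8, 5′ to 3′ on the strand of the gene. Both are hosts of members with unadjusted p under 0.05. Of these members the - probe in Tra2b passed the filter through the control group, and uc.33+ mainly through it. Hnrnpk is such a host too, and its window, with a GC content of 34.4%, is counted below but not printed. Capitals mark GC boxes (GGGCGG or its reverse CCGCCC). The window lies at chr2:210558278-210558527 on the - strand for Ptbp2 and at chr11:92293192-92293441 on the + strand for Tra2b. The arrays measured the elements and not these promoters.
Ptbp2: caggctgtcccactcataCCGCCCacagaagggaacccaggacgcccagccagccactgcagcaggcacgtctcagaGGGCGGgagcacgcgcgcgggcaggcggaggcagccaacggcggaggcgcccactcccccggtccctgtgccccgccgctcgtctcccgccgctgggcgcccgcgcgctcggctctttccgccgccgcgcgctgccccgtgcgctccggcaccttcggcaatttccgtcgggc
Tra2b: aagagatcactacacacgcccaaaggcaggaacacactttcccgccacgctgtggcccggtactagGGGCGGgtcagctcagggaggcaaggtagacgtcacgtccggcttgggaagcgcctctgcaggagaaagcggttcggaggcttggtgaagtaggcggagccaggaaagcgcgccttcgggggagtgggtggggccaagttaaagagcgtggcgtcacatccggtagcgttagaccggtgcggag
Of the 21 host genes, 20 were in the table of promoters, and Tra2a was not. A GC box lay in 12 of the 20 windows and in 32.4% of 27457 rat promoters of the same length. The CCAAT motif (reverse ATTGG) lay in 7 of 20 and in 34.3%, and TATAAA (reverse TTTATA) in 2 of 20 and in 13.1%. Ptbp2 held 2 GC boxes and Tra2b 1, and neither held CCAAT or TATAAA. The GC content was 75.6% for Ptbp2 and 62.8% for Tra2b, beside a median of 52.0% over all promoters. A match describes the letters of the window and is not a measured site.

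Processed pseudogenes can share sequence with a spliced transcript. The rat reference lists pseudogenes for 11 of the 21 hosts, among them 6 for Tra2b, 3 for Tra2a and 7 for Hnrnpk but none for Ptbp2 or Clk3. Whether a probe also bound such copies was not tested.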

How the data were processed

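RNA of synovial tissue from 5 CIA and 5 control rats was freed of rRNA, amplified into fluorescent cRNA with random primers and hybridised in 1 colour to Arraystar Rat LncRNA Arrays V3. The authors deposited for each array an intensity per spot from Agilent Feature Extraction 11.0.1.1, per the file headers, with the background subtracted and dim spots set to a small positive value by the software. They also deposited a table of log2 values normalized between arrays, by a method not given in the sources used here. That table served as an alternative.

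Log2 of the intensity was scaled by subtracting, per array, the 75th percentile of its lncRNA and mRNA probes. Spots marked as outliers or not uniform were dropped and spots of a probe averaged. Probes that 5 or more of the 10 arrays showed well above background were tested with limma 3.58.1 (lmFit and eBayes, R 4.3.3) on condition alone. Adjustment (Benjamini-Hochberg) covered all 21521 of them. Single probes were also compared by two-sided exact permutation tests. Tables and figures used Python 3.11.15. The fit was tested on simulated data. The labels name each sample as its own rat.

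The text accounts for every member. Values on every array are given for members with unadjusted p under 0.05 or separate group ranges, for the 5 with the highest means, and for strand differences that were lowest in p. The members, gene lists and tests were chosen with earlier results of these data known. Alternatives were quantile normalization, the array median, normexp with an offset of 50, the authors' values, other filters, replicate number and scan as blocks, array weights, the methods' t-test, and left-out arrays. The number of arrays limits the precision.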

Additional observations from a re-analysis of the deposited data

Results flagged for a closer look

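In 5 of 44 groups of values (22 tested members in both conditions, of 5 arrays each except 4 for HNRNPDL in CIA), the array at one end stood apart from its group. The gap to its neighbour was more than 0.71 of the range of 5 values, where chance gives about 2.2. The uc.33+ probe in PTBP2 was lowest in the control group on control 1, at -2.42, where the other control arrays lay between -1.93 and -1.82. For uc.46+ in HNRNPU, control 3 was lowest at -2.99 and not well above background, where the others lay between -1.64 and -1.34.

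Of these flags, 3 fell on SRSF6. Its + probe was lowest on control 3 in the control group, at -1.75 (others -0.65 to -0.25), and lowest on CIA 2 in the CIA group, at -2.98 (others -0.82 to -0.55), where it was not well above background. The - probe was highest on CIA 2 in the CIA group, at -0.10 (others -0.80 to -0.64). On CIA 2, + minus - was -2.88, and on the other 4 CIA arrays it lay between -0.17 and 0.22. CIA 2 and control 3 are among the 3 dimmest arrays, and the part of brightness in these values was not tested.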

How the results depend on the processing

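The count of 5 members with unadjusted p under 0.05 was 3 after normexp background correction (19% of all probes), 1 of 10 when detection on all 10 arrays was required (18.1%), 1 of 21 with the scan as a block (0.474%) and 14 with array quality weights (45.1%). It was 3 to 7 when each array was left out in turn, where the share of all probes ran from 8.35% to 20.7%. The count with adjusted p under 0.05 was 0 in every setting except array quality weights (9). The median log2 difference of the tested members was -0.15 after normexp, which adds an offset to every probe, and lay between -0.60 and -0.35 when each array was left out. The array median as the scale moved the median of all tested probes to 0.13 and that of the members to -0.27. The number of members tested was 10 of 46 when all 10 arrays were required and 31 when 1 was enough. The count of elements whose strand difference had unadjusted p under 0.05 was 1, the lower-numbered TRA2A element, after quantile normalization, after normexp, with the authors' values, with the replicate block, with the scan as a random block, with array weights and without the 3 dimmest arrays, 2 (uc.33 in PTBP2 and the HNRNPK element) without a filter, and 0 to 1 when each array was left out. No share over all fitted elements stands beside these counts of strand differences, so they are given as a description. The direction was kept by 12 of 21 members with the scan as a block, 19 of 22 with array weights, 18 of 22 without the 3 dimmest arrays and 21 of 22 with the authors' values. With the scan as a block the differences that turned were those of the - probe of the higher-numbered TRA2A element (0.83), the + probes in SRSF1 (0.52), TRA2B (0.77), MATR3 (0.52), TIAL1 (0.62) and SYNCRIP (0.23) and the - probes in HNRNPH1 (0.22), RBM39 (0.078) and PCBP2 (-1.19). The SRSF1 probe also turned with array weights (0.036) and without the 3 dimmest arrays (0.025). The causes were not tested. With the replicate block, 7 members had unadjusted p under 0.05 (24.2% of all probes) and 0 an adjusted one. The main fit did not take the numbers as pairs because the methods of the study use an independent samples test. Arrays with the same number deviated from their group means with correlations of 0.46, -0.08, 0.75, 0.44 and 0.53. Of the arrays, 2 of 5 CIA and 2 of 5 control arrays correlated best with their own number.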
